A study of Mus musculus with 14 samples.

Results

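Induced control cells of a murine leukaemia line at day 4 were compared with the same cells at day 0, across all genes. The comparison rests on 4 of the 14 libraries of the series, chosen by their titles alone and by no measured value: 2 libraries of sorted, induced cells at day 4 and 2 libraries of cells at day 0, all carrying the control hairpin. Of the 53465 genes in the count table, 10791 passed the filter on low counts and were tested. The line, KL974, is described in the labels as murine acute myeloid leukaemia (AML), and every group carried the genotype Trp53R172H;shMll3;shNf1, that is a mutant p53 allele with hairpins against Mll3 (Kmt2c) and Nf1. The medium held the cytokines SCF, IL3 and IL6, and the cells had received a lentiviral, doxycycline-inducible hairpin linked to the blue fluorescent protein BFP. The control hairpin was shRen713, which is directed against Renilla luciferase, a gene mice lack. The series asks what hairpins against Ogdh, a subunit of the 2-oxoglutarate dehydrogenase complex, do to such cells.

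Day 0 cells were untreated, and their labels name no sort. Day 4 cells had doxycycline for 4 days and were separated on a flow sorter. The BFP-positive (BFP+, induced) cells are compared with day 0, and the BFP-negative (BFP-, uninduced) cells had the same drug and time. Control cells were also sequenced at day 2. Time in culture, doxycycline, sorting and the control hairpin all separated the day 4 BFP+ libraries from the day 0 libraries, and their shares in any difference cannot be told apart. All libraries came from 1 line. No label says that the replicates were separate cultures, so the p-values measure the spread between these libraries, which may be technical.

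As background, Egr1 is an immediate early transcription factor, a gene that the ERK kinase pathway switches on within minutes of a growth signal, and cytokines such as SCF act on leukaemia cells partly through that pathway. The mitochondrial genome encodes core subunits of the respiratory chain and the ribosomal RNAs of the mitochondrial ribosome, read from long shared transcripts. Doxycycline belongs to the tetracyclines, which are known to slow translation on mitochondrial ribosomes.

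The 4 libraries held 2831835 and 2567604 counts at day 0 and 3191961 and 2148243 counts in day 4 BFP+ cells, within a range of 913482 to 10271698 over all 14. Levels are given as CPM, the count scaled to a common library size, with the first replicate first. The cell type in the labels was checked against defining markers. Kit, the SCF receptor, stood at 554 and 497 CPM of the library total at day 0 and 483 and 498 CPM in day 4 BFP+ cells, and the erythroid and mast cell factors Gata1 and Gata2 were present in all 4 libraries. Cd34, Mpo, Elane, Itgam, Ly6g and Cd3e had a count of 0 in each of the 4, and Spi1, which granulocytes and monocytes need, had 2 to 3 counts. Ptprc, a marker of white blood cells in general and not of myeloid cells alone, was low. It had 18 and 16 counts at day 0 (6.36 and 6.23 CPM) and 32 and 29 counts in day 4 BFP+ cells (10 and 13.5 CPM). Csf1r, the other monocytic marker in this check, had 0 to 1 counts. The longer list of monocyte and macrophage markers was not absent. It summed to 63.1 to 75.9 CPM at day 0 and 89.4 to 89.9 CPM in day 4 BFP+ cells. The highest levels were of Kit and of erythroid and mast cell factors, but the mast cell gene Cpa3 had only 2 to 7 counts. These markers alone do not fix the cell type.

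At day 4, 767 of the 10791 tested genes differed from day 0 (7.11%), at an adjusted p under 0.05 in edgeR's quasi-likelihood test. Of these, 373 were higher (3.46%) and 394 lower (3.65%), and the median called change was 0.435 on the log2 scale in size. Changes over 2-fold were found in 61 genes (0.565%), 38 higher (0.352%) and 23 lower (0.213%). At an unadjusted p under 0.05 there were 2205 (20.4%). The median over all tested genes was 0.011. The count depended on each library: 266 genes were called without day 0 replicate 1, 228 without day 0 replicate 2, 178 without BFP+ replicate 1 and 351 without BFP+ replicate 2. DESeq2 called 294. Of 137 called genes selected for description, 48 were called under every setting that gave them an adjusted p, and none changed sign. Unless a limit is stated, genes described below as having risen or fallen are among these 48 or, outside the selection, met the same standard. For some genes DESeq2 gave no adjusted p in this comparison, so it is no check on them. Hbb-bt, Hba-a2, Slc4a1, Jun, Fosl1, Vegfa, Ddit4, Gstt1 and Tspoap1 are among these. Where a list holds such genes, its DESeq2 count leaves them untested.

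**Figure D1:**
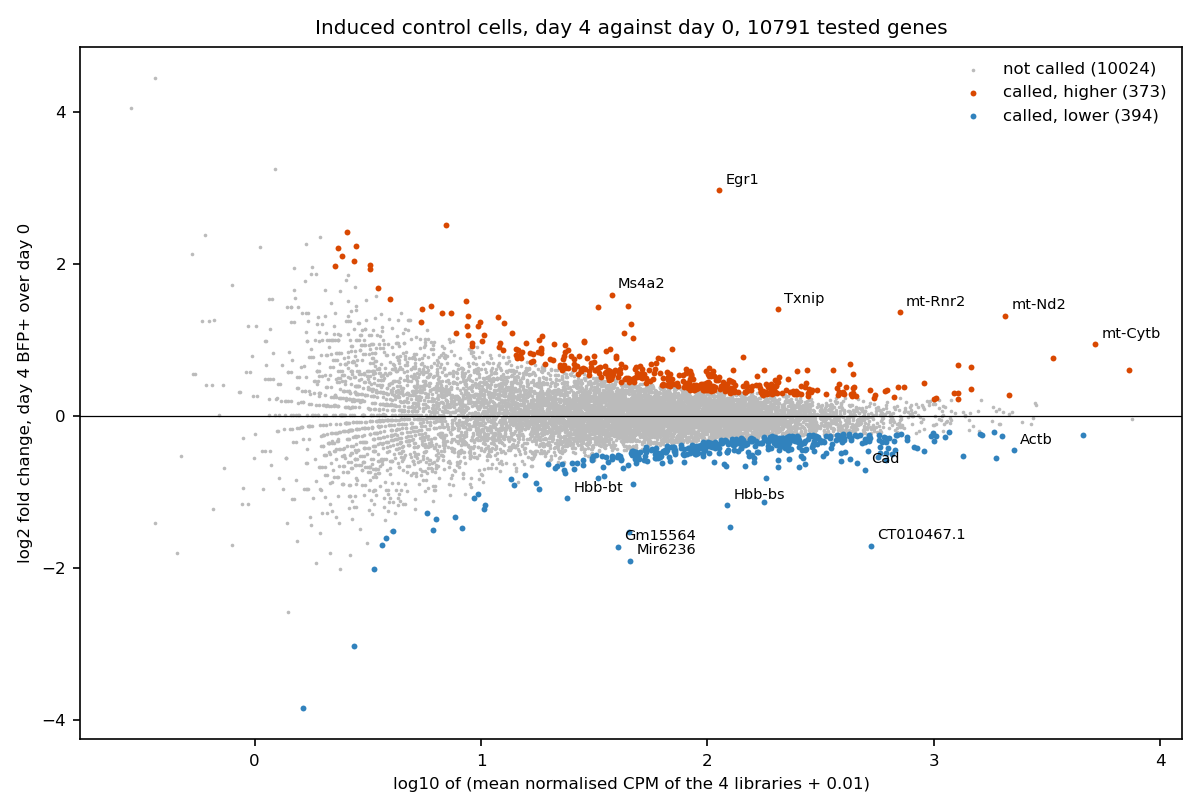
Each point is 1 of the 10791 tested genes, with the log10 of its mean normalised CPM over the 4 libraries on the x axis and its log2 fold change, day 4 BFP+ over day 0, on the y axis. The 373 genes called higher are orange and the 394 called lower are blue; Egr1 stands apart at 2.97, and CT010467.1, annotated as ribosomal RNA, at -1.71.

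Egr1 had the smallest p of all genes. Its level was 24.1 and 26.9 CPM at day 0 and 188 and 213 CPM in day 4 BFP+ cells. Both day 4 libraries lay far above both day 0 libraries, a 7.81-fold difference, and Egr1 rose by 2.97 ± 0.13 on the log2 scale (SE, adjusted p = 7.65e-28). The other control groups lay between these: 50.1 and 55.5 CPM in BFP- cells at day 2, 105 and 92.7 CPM in BFP+ cells at day 2 and 165 and 138 CPM in BFP- cells at day 4. The 5 groups did not overlap, and day 4 BFP+ cells were highest.

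The list of immediate early genes and ERK feedback regulators holds 36 genes, of which 27 passed the filter. Of these, 3 were higher and 2 lower (18.5% called), with a median of 0.14, and DESeq2 called 3. Ier2, another immediate early gene, stood at 48.6 and 44.5 CPM at day 0 and 73.9 and 84.4 CPM at day 4, without overlap, and rose by 0.75 ± 0.13 on the log2 scale (SE, adjusted p = 4.95e-05). Jun, a subunit of the AP-1 factor, was the third higher gene at 0.61 ± 0.19 (SE, adjusted p = 0.0295) on the log2 scale, a call lost with no filter on low counts (0.0565) and without day 0 replicate 1 (0.0702), day 0 replicate 2 (0.288) or BFP+ replicate 2 (0.404, at 0.379). Fos, its partner, was nearly silent, at 0.355 and 0 CPM at day 0 and 1.25 and 3.26 CPM at day 4, and was not called. Dusp6, a phosphatase that ERK induces against itself, was not called either, at 0.44 ± 0.23 (SE, adjusted p = 0.261). The lower genes were Fosl1, an AP-1 subunit, at -0.89 ± 0.23 (SE, adjusted p = 0.00988) and Myc at -0.32 ± 0.08 (SE, adjusted p = 0.01). Fosl1 lost its call without day 0 replicate 2 (adjusted p = 0.128) or BFP+ replicate 1 (0.327), and Myc lost it without any 1 of the 4 libraries (0.063 to 0.106). With any 1 library left out, 2 to 3 members were higher and 0 to 1 lower.

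Ms4a2 was among the 12 largest rises, and the receptor genes Il9r and Il1rl1 rose by less. Ms4a2, the beta chain of the high-affinity IgE receptor of mast cells and basophils, stood at 17.4 and 19.9 CPM at day 0 and 52.9 and 60.6 CPM at day 4. It rose by 1.59 ± 0.17 on the log2 scale (SE, adjusted p = 1.20e-10), with no overlap. Il9r, a receptor chain for the mast cell growth factor IL-9, stood at 27 and 28.1 CPM and then at 59.8 and 69 CPM, and rose by 1.21 ± 0.15 on the log2 scale (SE, adjusted p = 7.78e-09). Il1rl1, the IL-33 receptor, went from 146 and 139 CPM to 229 and 200.5 CPM and rose by 0.60 ± 0.10 on the log2 scale (SE, adjusted p = 1.06e-05). The groups did not overlap in any of these 3 receptor genes. That adds little to the calls, since 4 libraries in random order separate in this way with a probability of 0.333. The rule that named Ms4a2 also required it. The same limit holds for the other genes said here to separate 2 groups.

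Of 24 mast cell, basophil and eosinophil markers, 11 had a count of 0 in all 4 libraries and 6 passed the filter. Ms4a2 and Il1rl1 were higher, also with any 1 library left out, and none was lower; the median of the 6 was 0.44. Kit was at -0.11 ± 0.08 (SE, adjusted p = 0.45), Hdc, which makes histamine, at 0.06 ± 0.08 (SE, adjusted p = 0.734) and Gata2 at 0.28 ± 0.10 (SE, adjusted p = 0.0593), none of them called. Gata2 was called with the replicate number as a block (adjusted p = 0.0479), with only the 4 libraries fitted (0.0204) and, just under the threshold, with upper quartile scaling (0.05). Cpa3, the mast cell carboxypeptidase, had 2 and 2 counts at day 0 and 7 and 5 counts at day 4, too few to be called. The summed level of the whole list was 1090 to 1168 CPM at day 0 and 1243 to 1258 CPM at day 4. In bulk RNA, more cells of a type and more RNA per cell cannot be told apart.

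The globin genes Hbb-bs, Hbb-bt and Hba-a1 fell. Hbb-bs, an adult beta globin, stood at 164 and 175 CPM at day 0 and 76.4 and 73.7 CPM in day 4 BFP+ cells, and fell by 1.17 ± 0.11 on the log2 scale (SE, adjusted p = 1.84e-12). Hbb-bt, its near-identical neighbour, stood at 30.5 and 34.8 CPM and then at 15.7 and 14.9 CPM, and fell by 1.08 ± 0.19 on the log2 scale (SE, adjusted p = 6.89e-05). Hba-a1, an alpha globin, went from 224 and 239 CPM to 131 and 132 CPM and fell by 0.81 ± 0.10 on the log2 scale (SE, adjusted p = 2.56e-09). None of the 3 overlapped between groups. Reads of the beta globin copies, and of Hba-a1 and its copy Hba-a2, may be shared between copies, so the split within each pair is uncertain.

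Of 27 erythroid and megakaryocyte markers, 21 passed the filter: 1 was higher and 6 were lower (33.3% called, median -0.105). DESeq2 called 3, and it gave no adjusted p for Hbb-bt, Hba-a2 and Slc4a1. Besides the globins named, Hba-a2 (-0.62 ± 0.16 (SE, adjusted p = 0.00697)), the anion exchanger Slc4a1 (-1.36 ± 0.40 (SE, adjusted p = 0.0255)) and the repressor Gfi1b (-0.27 ± 0.09 (SE, adjusted p = 0.043)) were lower. With any 1 library left out, 3 to 5 were lower. Slc4a1 was uneven within BFP+ cells, at 1.57 and 6.06 CPM. It was at -0.541 without BFP+ replicate 1 (adjusted p = 0.627) and at -2.465 without BFP+ replicate 2, and also lost its call without day 0 replicate 1 (0.0653), day 0 replicate 2 (0.196) or on thinned counts (0.0702). Hba-a2 lost its call without day 0 replicate 2 (0.175), without BFP+ replicate 1 (0.217) and on thinned counts (0.0548). Gfi1b lost it without any 1 of the 4 libraries (0.142 to 0.233), under DESeq2 (0.0951), with upper quartile scaling (0.0533), with no filter (0.0504) and on thinned counts (0.082). The erythroid factor Klf1 was not called, at 0.13 ± 0.09 (SE, adjusted p = 0.432). The summed level of the list was 4122 to 4249 CPM at day 0, 3896 to 3911 CPM in day 4 BFP+ cells and 4120 to 4196 CPM in day 4 BFP- cells.

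The promoters of 2 risen genes and of the 2 beta globin genes are shown because these genes carry the lineage-linked part of the result. The sequences are from RefSeq on GRCm38.p6, from 250 bases before to 50 bases after the start, in the direction of the gene, and 98 of the genes selected for description had an entry. Capitals mark AGATAA, the letters of a site that GATA factors can bind, or CCACACCC, the letters of a site that Klf1 can bind, each searched on both strands. The windows are chr19:11623670-11623969, minus strand, for Ms4a2; chr11:32200230-32200529, minus strand, for Il9r; chr7:103827879-103828178, minus strand, for Hbb-bs; and chr7:103813874-103814173, minus strand, for Hbb-bt.
Ms4a2: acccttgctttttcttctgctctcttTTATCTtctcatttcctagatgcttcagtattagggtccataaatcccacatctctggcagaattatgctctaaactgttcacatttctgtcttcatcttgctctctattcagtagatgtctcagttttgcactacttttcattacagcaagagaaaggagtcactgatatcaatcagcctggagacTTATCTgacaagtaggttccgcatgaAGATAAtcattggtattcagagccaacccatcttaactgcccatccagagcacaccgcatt
Il9r: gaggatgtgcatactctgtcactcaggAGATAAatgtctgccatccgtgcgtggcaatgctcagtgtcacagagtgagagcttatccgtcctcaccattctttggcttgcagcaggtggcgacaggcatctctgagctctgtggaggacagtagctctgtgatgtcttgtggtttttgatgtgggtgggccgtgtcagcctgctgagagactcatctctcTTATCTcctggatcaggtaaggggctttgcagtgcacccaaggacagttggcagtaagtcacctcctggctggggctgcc
Hbb-bs: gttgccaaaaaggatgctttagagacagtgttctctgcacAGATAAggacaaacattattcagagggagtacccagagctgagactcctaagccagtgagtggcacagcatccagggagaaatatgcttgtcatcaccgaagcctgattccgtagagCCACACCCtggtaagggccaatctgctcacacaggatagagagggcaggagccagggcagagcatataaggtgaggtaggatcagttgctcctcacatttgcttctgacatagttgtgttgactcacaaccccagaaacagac
Hbb-bt: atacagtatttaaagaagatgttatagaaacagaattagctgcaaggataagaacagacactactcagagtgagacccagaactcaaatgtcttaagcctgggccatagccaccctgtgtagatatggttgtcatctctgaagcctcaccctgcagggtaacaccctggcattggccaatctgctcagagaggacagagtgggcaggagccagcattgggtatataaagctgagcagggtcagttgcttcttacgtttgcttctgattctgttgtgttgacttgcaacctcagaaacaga

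AGATAA occurred 3 times in the Ms4a2 window, 2 times in that of Il9r, 1 time in that of Hbb-bs and not in that of Hbb-bt. CCACACCC occurred once, in that of Hbb-bs. Of all 32851 promoter windows of this length, 11.2% held AGATAA and 3.56% held CCACACCC. Among tested genes with such a window, AGATAA was in 6.15% of 8306, in 6.38% of the 282 called higher and in 4.81% of the 312 called lower. Both shares among called genes were near that of all tested genes. A match is a run of letters, not a measured binding site.

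**Figure D2:**
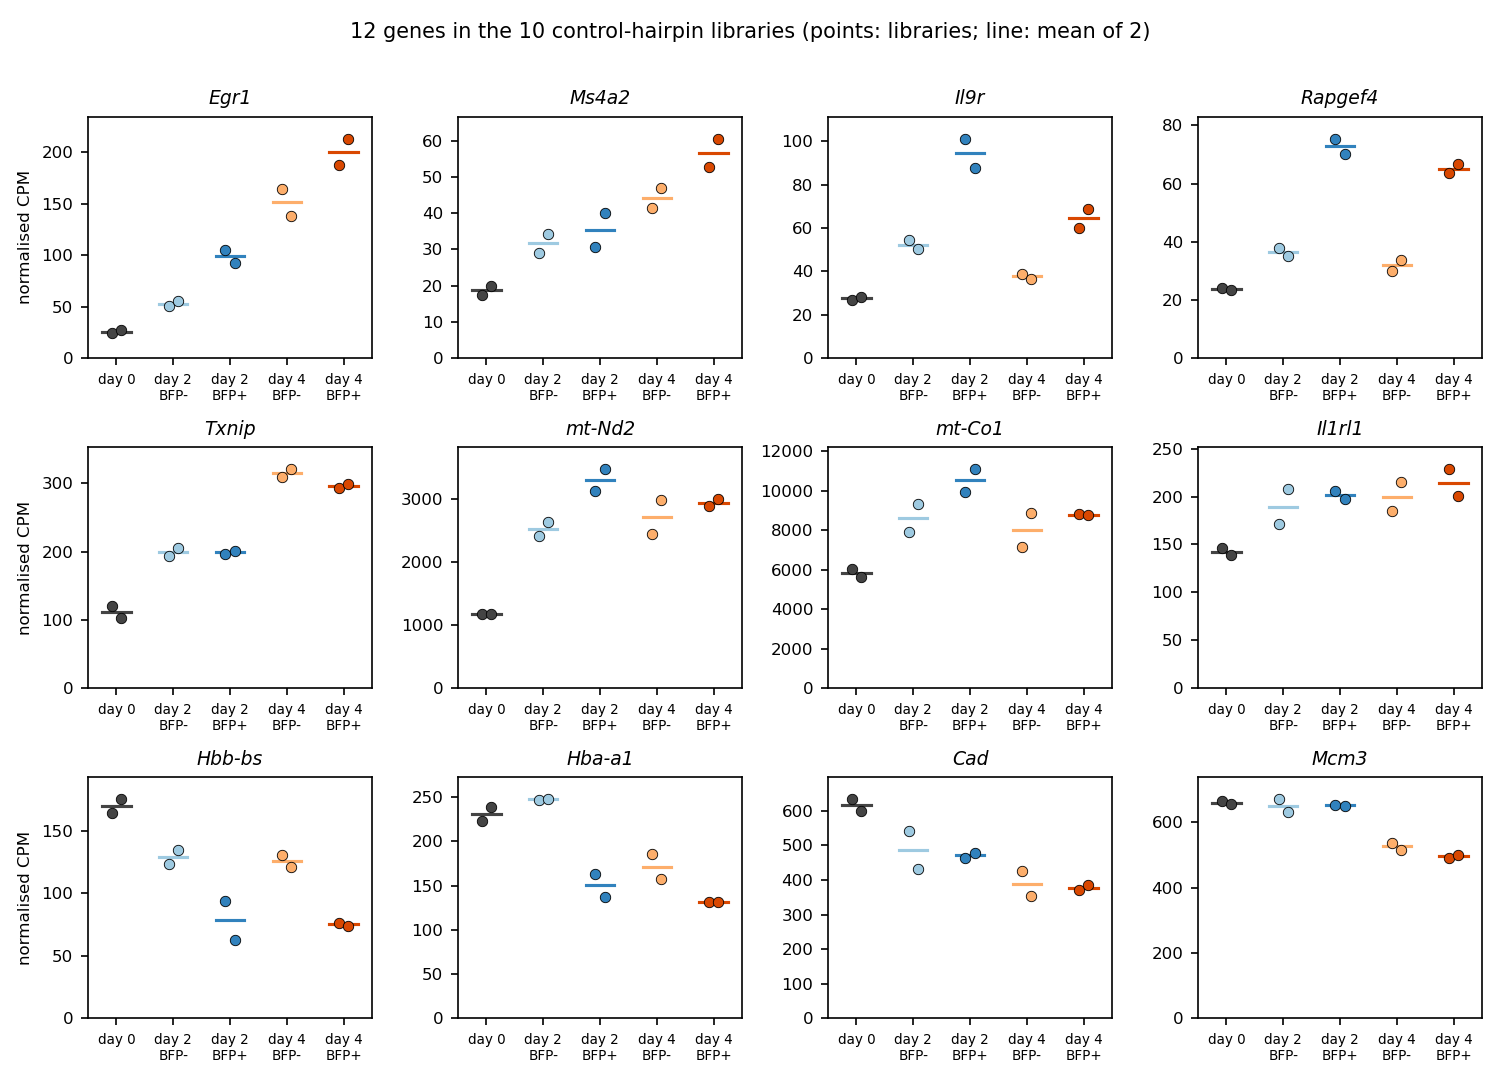
Normalised CPM (y axis, from 0) of 12 genes in the 10 control-hairpin libraries, by day and BFP sort (x axis). Points are libraries and lines are means of 2; Egr1 is highest in day 4 BFP+ cells, Il9r and Rapgef4 do not overlap between BFP+ and BFP- cells on either day, and Cad and Mcm3 are lower at day 4 than at day 0.

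Transcripts of the mitochondrial genome rose. Of the 15 mitochondrial genes in the list, 9 passed the filter, and 8 of these were higher and none lower (88.9% called, median 0.681), also with any 1 of the 4 libraries left out and under DESeq2. mt-Nd2, a subunit of respiratory complex I, stood at 1182 and 1182 CPM at day 0 and 2884 and 3007 CPM at day 4, and rose by 1.32 ± 0.08 on the log2 scale (SE, adjusted p = 4.58e-21). mt-Cytb, a subunit of complex III, went from 3679 and 3400 CPM to 6860 and 6727 CPM and rose by 0.94 ± 0.07 on the log2 scale (SE, adjusted p = 1.63e-16). mt-Co1, a subunit of complex IV, went from 6005 and 5619 CPM to 8809 and 8758 CPM and rose by 0.60 ± 0.08 on the log2 scale (SE, adjusted p = 3.06e-08). None of the 3 overlapped between groups, and the sizes differed between genes of the same genome.

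Reads of the ribosomal RNAs of the mitochondrial ribosome went apart at day 4. The libraries were made from RNA selected by its polyA tail, so both levels measure what passed that selection. mt-Rnr2, the large one, stood at 369 and 423 CPM at day 0 and 1003 and 1033 CPM at day 4 and rose by 1.36 ± 0.09 on the log2 scale (SE, adjusted p = 1.50e-19). mt-Rnr1, the small one, was at 119.6 and 116 CPM and 126.2 and 109 CPM, a difference of 0.01 ± 0.11 (SE, adjusted p = 0.972) that was not called. In day 2 BFP+ cells all 9 tested mitochondrial genes, mt-Rnr1 among them, were called higher than at day 0, by at least 0.776. At day 4 against day 2, 1 of the 9 was higher and 4 were lower, and these counts varied with the library left out. mt-Nd1 rose by 0.76 ± 0.08 on the log2 scale (SE, adjusted p = 1.20e-10), and mt-Nd4, mt-Nd5 and mt-Nd6 were higher by 0.66, 0.65 and 0.68. The share of all counts on mitochondrial genes was 1.63% and 1.56% at day 0 and 2.78% and 2.76% in day 4 BFP+ cells. Some mitochondrial genes, mt-Co2, mt-Co3 and mt-Atp6 among them, had a count of 0 in all libraries, so these shares leave them out.

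The nuclear genes of the same organelle did not show this pattern. Of 55 tested nuclear genes of oxidative phosphorylation, 1 was higher and 0 lower (median -0.02). That gene was Uqcrc2, a complex III subunit, at 0.29 ± 0.09 (SE, adjusted p = 0.0406), and it was not called with any 1 library left out. Of 76 mitochondrial ribosomal protein genes, 1 was higher and 1 lower (median -0.095). Of 24 tricarboxylic acid cycle genes, 0 were called by edgeR or by DESeq2 (median 0.002), and 2 were lower at an unadjusted p under 0.05. These shares were below that of all tested genes.

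Of 38 tested genes of DNA replication, 12 were lower, 26 were not called and none was higher (31.6% called, median -0.157), and 5 to 6 were lower with any 1 library left out. Mcm3, a subunit of the replicative helicase, stood at 665 and 655 CPM at day 0 and 492 and 500.3 CPM at day 4, and fell by 0.41 ± 0.08 on the log2 scale (SE, adjusted p = 0.000121). Mcm5, of the same helicase, fell by 0.43 ± 0.08 on the log2 scale (SE, adjusted p = 0.000309), the ligase Lig1 fell by 0.42 ± 0.08 on the log2 scale (SE, adjusted p = 0.000137) and the licensing factor Cdt1 fell by 0.43 ± 0.09 on the log2 scale (SE, adjusted p = 0.00109). Each of the 4 genes separated the groups without overlap, and DESeq2 called 8 of the replication list. Of 40 tested mitosis genes, 2 were higher and 1 lower (7.5% called, median 0.045), a share near that of all tested genes, and 0 to 2 were called with any 1 library left out.

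Of 39 tested genes of ribosome making and other MYC targets, 11 were lower, 28 were not called and none was higher (28.2% called, median -0.142), and 4 to 5 were lower with any 1 library left out. Cad, the enzyme that starts pyrimidine synthesis, stood at 634 and 599.9 CPM at day 0 and 370.3 and 386 CPM at day 4, without overlap, and fell by 0.71 ± 0.09 on the log2 scale (SE, adjusted p = 8.66e-09). Bop1, an assembly factor of the large ribosomal subunit, fell by 0.55 ± 0.08 on the log2 scale (SE, adjusted p = 2.51e-06), and Polr1a, the large subunit of RNA polymerase I, fell by 0.45 ± 0.09 on the log2 scale (SE, adjusted p = 0.000264). Of 31 nucleotide synthesis genes, which also include Cad, 5 were lower and none higher (median -0.074), with 1 to 2 lower when a library was left out. Genes of the cytosolic ribosome itself differed from both: of 75 tested, 11 were higher and 1 lower (median 0.06). By DESeq2, 6 of these were called, 2 of the nucleotide synthesis list and 9 of the ribosome making and MYC list. Rpl39 rose by 0.60 ± 0.10 on the log2 scale (SE, adjusted p = 6.34e-06), and 1 to 5 were higher with any 1 library left out. Ribosomal protein genes share reads with their pseudogenes, and among 80 tested processed pseudogenes of any gene 9 were lower and none higher, so part of that split is uncertain.

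Of 21 tested genes of the actin cytoskeleton and of SRF, the factor that drives them, 6 were lower, 15 were not called and none was higher (28.6% called, median -0.215), and 4 to 5 were lower with any 1 library left out. Under DESeq2, 5 of the list were called. Actb, beta actin, stood at 2645 and 2555 CPM at day 0 and 1970 and 1840 CPM at day 4, and fell by 0.45 ± 0.07 on the log2 scale (SE, adjusted p = 9.13e-06). Myh9, the heavy chain of non-muscle myosin, fell by 0.58 ± 0.08 on the log2 scale (SE, adjusted p = 2.30e-07), the crosslinker Flna fell by 0.43 ± 0.08 on the log2 scale (SE, adjusted p = 9.04e-05) and gamma actin, Actg1, fell by 0.45 ± 0.09 on the log2 scale (SE, adjusted p = 0.000597). Genes of splicing and transcription that were chosen after their values were seen also fell: Snrnp200 and Prpf8 of the spliceosome by 0.53 and 0.55, and Polr2a, the large subunit of RNA polymerase II, by 0.62. The transcripts of genes called lower had a median length of 5130.5 bases, against 4623 bases for those called higher and 4300 bases for all tested genes.

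**Figure D3:**
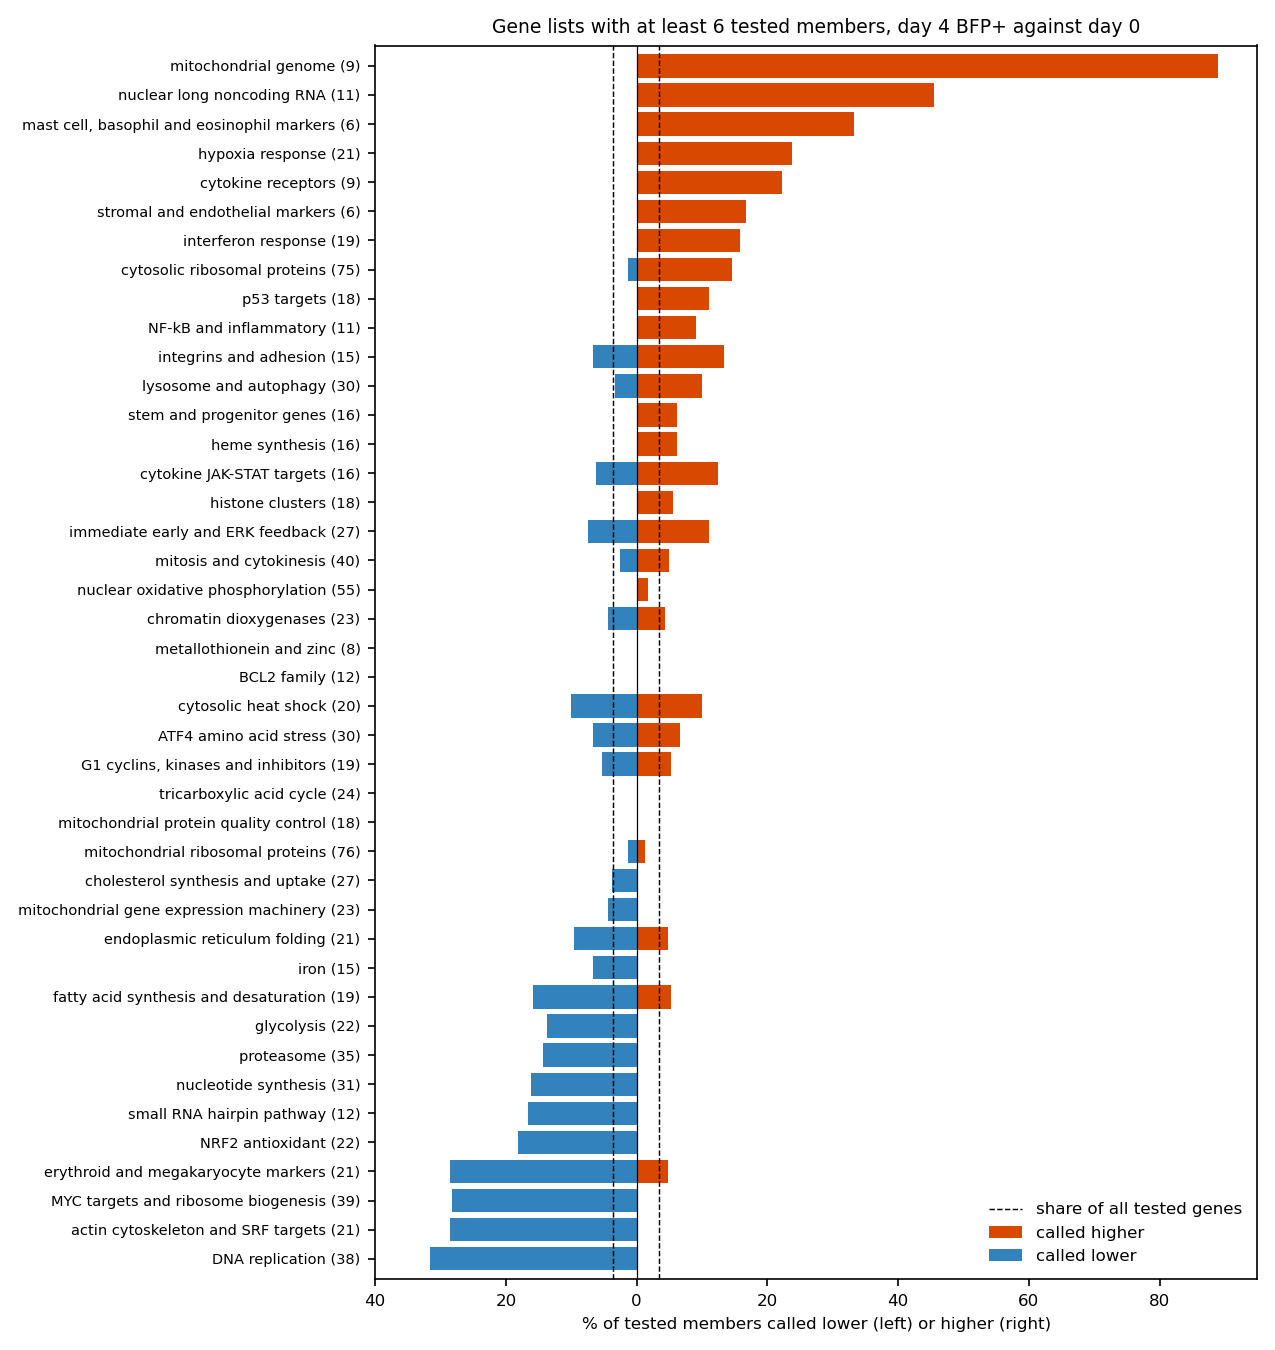
Share of tested members (x axis, %) called higher, to the right, or lower, to the left, at day 4 for gene lists with at least 6 tested members; the number tested is in brackets. Dashed lines are the shares over all tested genes, 3.46% and 3.65%. The mitochondrial genome has the largest share called higher, and DNA replication the largest called lower.

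Reads assigned to ribosomal RNA and to genes that moved with it were lower at day 4. These genes were grouped by that movement in the same data, so their shared direction is no separate result. Lars2 was named only as one of the group. CT010467.1, annotated as ribosomal RNA, stood at 894 and 726 CPM at day 0 and 282 and 208 CPM at day 4, and fell by 1.71 ± 0.20 on the log2 scale (SE, adjusted p = 2.58e-09). Its neighbour Gm26917 fell by 1.46 ± 0.16 on the log2 scale (SE, adjusted p = 8.23e-10), and Mir6236, Gm15564 and Lars2 fell by 1.90, 1.72 and 1.13. Gm23935, set with them after its values were seen, was at -1.53 ± 0.31 (SE, adjusted p = 0.000737) and lost its call without day 0 replicate 1 (adjusted p = 0.137). The libraries were made from RNA selected by its polyA tail, and ribosomal RNA has none, so these levels measure what passed that selection. Their summed level was 1554 and 1316 CPM at day 0, 542.9 and 419.9 CPM in day 4 BFP+ cells, and 1063 and 434.5 CPM in day 4 BFP- cells, whose replicates differed. With these 6 genes left out of the fit, 809 genes were called in all. The part of RNA selection in other results was not tested.

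Txnip, a glucose-regulated inhibitor of thioredoxin and of glucose uptake, was among the clearest rises. It stood at 119.9 and 103 CPM at day 0 and 293 and 299 CPM at day 4, without overlap, and rose by 1.41 ± 0.09 on the log2 scale (SE, adjusted p = 5.60e-20). Of 21 tested hypoxia response genes, 5 were higher and none lower (23.8% called, median 0.336), with 2 to 3 higher when a library was left out. Of the hypoxia list, DESeq2 called 1, and it gave no adjusted p for Vegfa and Ddit4. Kdm3a, a histone demethylase induced by low oxygen, rose by 0.47 ± 0.09 on the log2 scale (SE, adjusted p = 0.000348). Vegfa, the vascular growth factor, stood at 4.26 and 4.3 CPM at day 0 and 9.4 and 16.3 CPM at day 4, at 1.51 ± 0.33 (SE, adjusted p = 0.0019), and lost its call without BFP+ replicate 2 (adjusted p = 0.101). Ddit4, an mTOR inhibitor induced by stress, was at 0.98 ± 0.19 (SE, adjusted p = 0.000241) and lost its call without day 0 replicate 2 (0.0511). Fasn, the fatty acid synthase, fell by 0.57 ± 0.09 on the log2 scale (SE, adjusted p = 4.18e-06). Sqstm1, an autophagy receptor that NRF2 also induces, fell by 0.41 ± 0.09 on the log2 scale (SE, adjusted p = 0.000894).

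Day 2 BFP+ cells had differed more widely from day 0, and much of that difference was smaller at day 4. Against the same day 0 libraries, 1928 genes were called at day 2 (17.9%), 9.1% of tested genes higher and 8.77% lower. Between BFP+ cells of day 4 and of day 2, 1286 genes differed (11.9%), 5.88% higher and 6.04% lower at day 4. The latter count was 367 without day 2 replicate 1, 1167 without day 2 replicate 2, 654 without day 4 replicate 1 and 658 without day 4 replicate 2. Of 27 tested cholesterol genes, 0 were higher and 1 lower at day 4, 19 were higher and 1 lower at day 2, and 19 were lower at day 4 than at day 2. Leaving out any 1 library, 12 to 17 were lower at day 4 than at day 2. Of 22 glycolysis genes, 0 were higher and 3 lower at day 4, 13 were higher and 1 lower at day 2, and 15 were lower at day 4 than at day 2 (12 to 13 with 1 library left out).

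The cytosolic ribosome and hypoxia lists, described above at day 4, also had more higher members at day 2. Of the 75 cytosolic ribosome genes, 44 were higher and 0 lower at day 2, and 21 were lower at day 4 than at day 2. Of the 21 hypoxia genes, 9 were higher and 1 lower at day 2. At day 4 against day 2, 1 of them was higher and 7 were lower. The counts of both lists varied with the library left out. Named members of the cholesterol and glycolysis lists show the same order. Hmgcs1, of cholesterol synthesis, stood at 38.3 and 38.3 CPM at day 0, 64.7 and 71.5 CPM at day 2 and 47 and 50.4 CPM at day 4, and was lower at day 4 than at day 2 at -0.47 ± 0.14 (SE, adjusted p = 0.0144), a call lost without day 2 replicate 1 (adjusted p = 0.0693), day 2 replicate 2 (0.0637) or day 4 replicate 1 (0.147). Aldoa, of glycolysis, stood at 373 and 344 CPM, 703 and 609 CPM and 349 and 340.4 CPM, and was lower at day 4 than at day 2 at -0.94 ± 0.09 (SE, adjusted p = 7.46e-13). Their day 4 values against day 0 were 0.34 ± 0.15 (SE, adjusted p = 0.16) and -0.06 ± 0.09 (SE, adjusted p = 0.77), neither of them called. Of 30 amino acid stress genes under the factor ATF4, 2 were higher and 2 lower at day 4, 18 were higher and 0 lower at day 2, and 20 were lower at day 4 than at day 2 (7 to 21 with 1 library left out). Egr1 was higher at day 4 than at day 2, at 0.99 ± 0.11 (SE, adjusted p = 6.39e-10), and Txnip likewise, at 0.58 ± 0.09 (SE, adjusted p = 1.19e-06). Ms4a2 was at 0.72 ± 0.16 (SE, adjusted p = 0.000765), a call lost without day 2 replicate 1 (0.247). Il9r was lower at day 4 than at day 2, at -0.59 ± 0.12 (SE, adjusted p = 0.000354), a call lost without day 2 replicate 1 (0.106).

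**Figure D4:**
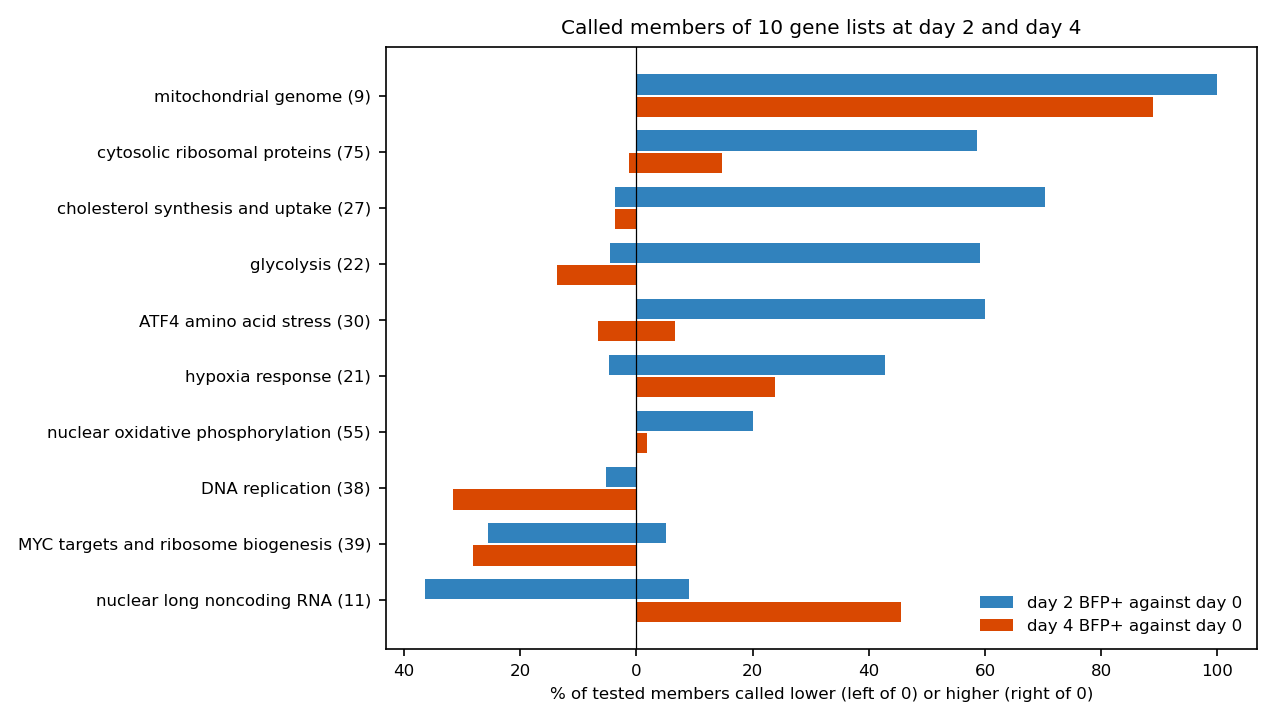
Share of tested members (x axis, %) of 10 gene lists called higher, right of 0, or lower, left of 0, in BFP+ cells at day 2 and at day 4, each against the same 2 day 0 libraries. Cholesterol, glycolysis and ATF4 genes are called higher in numbers at day 2 (19, 13 and 18) and not at day 4 (0, 0 and 2), while the mitochondrial genome is called higher at both (9 and 8).

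The BFP- cells of day 4 had the same drug, the same days and a sort, but did not show the hairpin's reporter. Against day 0, 866 genes were called in them (8.03%), 414 higher (3.84%) and 452 lower (4.19%). This comparison shares the day 0 libraries with that of BFP+ cells, so the values are given side by side. Egr1 was at 2.55 ± 0.13 (SE, adjusted p = 1.32e-24) in BFP- cells and 2.97 in BFP+ cells, Ms4a2 at 1.27 ± 0.16 (SE, adjusted p = 2.18e-08) and 1.59, Txnip at 1.50 ± 0.09 (SE, adjusted p = 2.63e-22) and 1.41, and mt-Nd2 at 1.20 ± 0.08 (SE, adjusted p = 2.36e-19) and 1.32. Cad was at -0.68 ± 0.08 (SE, adjusted p = 1.93e-08) and -0.71. Of the 9 mitochondrial genes 8 were higher in BFP- cells as well, but fewer were without day 0 replicate 2 or BFP- replicate 2. Of 38 tested DNA replication genes 10 were lower in BFP- cells, and of 39 tested genes of ribosome making and other MYC targets 13 were lower. The chi-square per degree of freedom was 2.71 between BFP- replicates and 1.246 between BFP+ replicates, where 1 is counting noise. This measure grows with depth, and the BFP- libraries were deeper, at 3663014 and 10271698 counts. It therefore does not show alone that BFP- replicates differed more. The count of genes called in BFP- cells against day 0 also depended on which library was left out.

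The direct test between the day 4 populations called 8 genes (0.0741%), 4 higher (0.0371%) and 4 lower (0.0371%) in BFP+ cells, and 498 at an unadjusted p under 0.05 (4.61%). Rapgef4, a cAMP-regulated activator of the small GTPase Rap, stood at 24.1 and 23.4 CPM at day 0, 29.8 and 33.8 CPM in BFP- cells and 63.6 and 66.7 CPM in BFP+ cells. It rose by 1.45 ± 0.15 on the log2 scale (SE, adjusted p = 1.20e-10) in BFP+ cells against day 0, and BFP+ cells exceeded BFP- cells by 0.999 ± 0.12 (SE, adjusted p = 2.57e-07). Il9r stood at 38.8 and 36.6 CPM in BFP- cells, and BFP+ cells exceeded them by 0.77 ± 0.12 (SE, adjusted p = 7.07e-05); this call was lost without BFP+ replicate 2 (adjusted p = 0.0578). Hbb-bs stood at 131 and 121 CPM in BFP- cells and was lower in BFP+ cells, at -0.73 ± 0.11 (SE, adjusted p = 1.77e-05). Hbb-bt stood at 32.5 and 29.8 CPM in BFP- cells and was at -0.999 ± 0.17 (SE, adjusted p = 0.000717), a call lost without either BFP+ replicate (0.218 and 0.0635) and under DESeq2 (0.104). For these 4 genes the BFP+ and BFP- libraries did not overlap.

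The others were smaller or less stable. Egr1 was higher in BFP+ cells by 0.42 ± 0.09 (SE, adjusted p = 0.0432), and this call was lost under DESeq2 (adjusted p = 1), with upper quartile scaling (0.0547), with no filter on low counts (0.0516), on thinned counts (0.178) and without BFP- replicate 2 (0.568), BFP+ replicate 1 (0.218) or BFP+ replicate 2 (1). Mettl9, a protein methyltransferase, was at 0.65 ± 0.13 (SE, adjusted p = 0.021), Sec11c, of the signal peptidase, at -0.42 ± 0.09 (SE, adjusted p = 0.021) and Slc26a1, a sulfate transporter, at -0.50 ± 0.11 (SE, adjusted p = 0.0429); each lost its call under DESeq2. Mettl9 also lost it without BFP- replicate 1 (0.241) or BFP+ replicate 1 (1). Sec11c lost it without BFP- replicate 2 (0.41), BFP+ replicate 1 (0.267) or BFP+ replicate 2 (0.776) and on thinned counts (0.123). Slc26a1 lost it without any 1 of the 4 libraries (0.0946 to 1) and on thinned counts (0.82). Against day 0, BFP+ cells were not called for these 3 genes, except Slc26a1 with only the 4 libraries fitted (-0.333, adjusted p = 0.0394). The count of 8 was 6 without BFP- replicate 1, 16 without BFP- replicate 2, 3 without either BFP+ replicate, and 3 under DESeq2. What the sort also separates, such as cell size or cycle phase, was not tested.

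**Figure D5:**
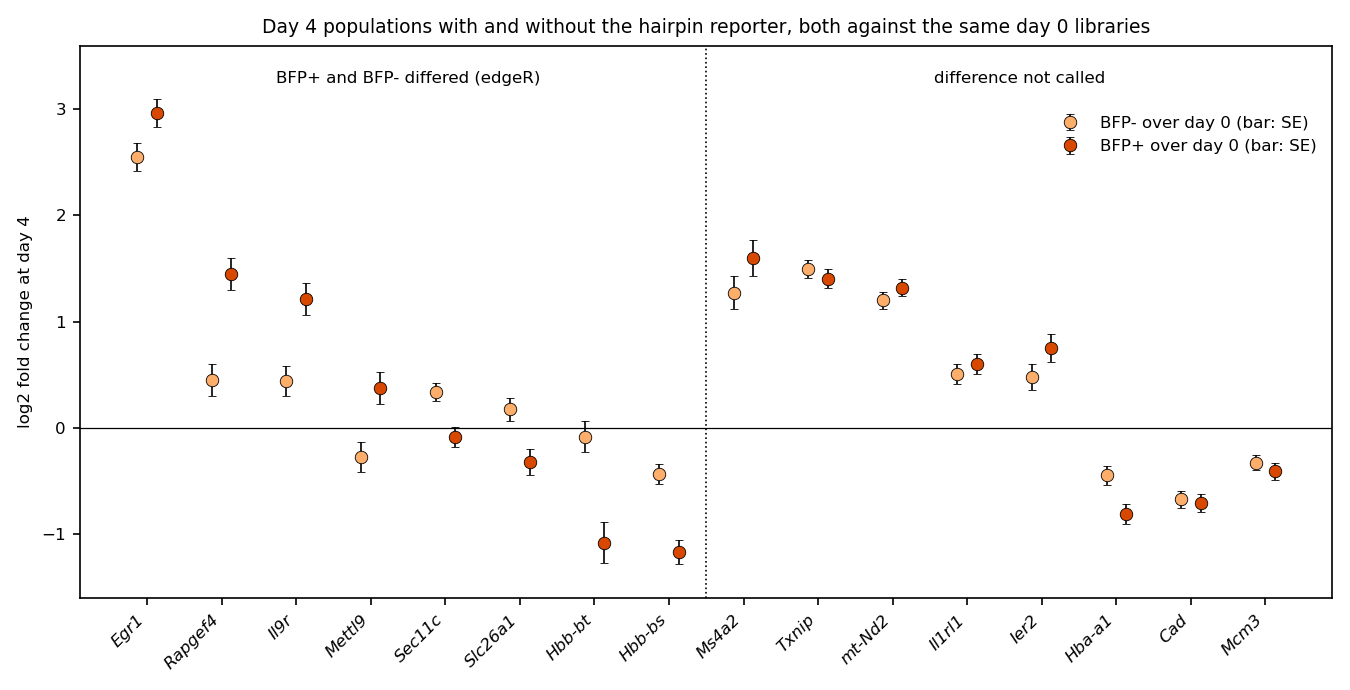
Log2 fold change at day 4 against day 0 (y axis) for 16 genes (x axis), in BFP- cells (light) and BFP+ cells (dark), with bars of 1 SE; both use the same day 0 libraries. Left of the dotted line are the 8 genes that differed between the populations, among them Rapgef4 and Hbb-bt; right of it the difference was not called.

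Of the genes named in the genotype or targeted in the series, Trp53 was called. Trp53 stood at 361 and 353 CPM at day 0 and 284 and 277 CPM at day 4, at -0.35 ± 0.09 (SE, adjusted p = 0.00847), a call lost without any 1 of the 4 libraries (adjusted p = 0.0519 to 0.0993). Kmt2c was at -0.22 ± 0.10 (SE, adjusted p = 0.196), Nf1 at -0.14 ± 0.13 (SE, adjusted p = 0.596) and Ogdh at -0.23 ± 0.09 (SE, adjusted p = 0.0827), none of them called. Ogdh was called lower with only the 4 libraries fitted (-0.243, adjusted p = 0.00947) and with the transcript length offset (-0.256, 0.0379). The hairpin and BFP transcripts were not analysed here.

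Among further rises, Tspoap1, a scaffold protein named for binding the outer mitochondrial membrane protein TSPO, stood at 16.7 and 18.4 CPM at day 0 and 41.4 and 54.6 CPM at day 4 and rose by 1.42 ± 0.18 on the log2 scale (SE, adjusted p = 2.96e-08). Smpdl3a, a phosphodiesterase, went from 111 and 101 CPM to 186 and 174 CPM and rose by 0.77 ± 0.10 on the log2 scale (SE, adjusted p = 1.74e-08). Gstt1, a glutathione transferase, was lower, at 56.8 and 66.4 CPM and then 35.1 and 29.8 CPM, and fell by 0.90 ± 0.15 on the log2 scale (SE, adjusted p = 1.73e-05). Smpdl3a and Gstt1 were named after their values were seen. Gstt1 was not called at day 2, at 0.09 ± 0.14 (SE, adjusted p = 0.691), and fell from day 2 to day 4 by 0.99 (adjusted p = 2.31e-06).

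Markers of other cell types gave few calls. Of the tested markers of neutrophils (1), monocytes (5), B cells (1), T and NK cells (2) and dendritic cells (2), 0 were called by edgeR or by DESeq2 at day 4, and 1, of monocytes, was higher at an unadjusted p under 0.05. Of 25 neutrophil markers 19 had a count of 0 in all 4 libraries, and the summed level was 4.94 to 6.62 CPM at day 0 and 5.64 to 6.98 CPM at day 4. The monocyte list summed to 63.1 to 75.9 CPM at day 0 and 89.4 to 89.9 CPM at day 4, with 18 of 32 genes at 0. Stromal and endothelial markers summed to 36.6 to 41.0 CPM at day 0 and 52.6 to 54.5 CPM at day 4, and 1 of 6 tested was higher. That gene, Dcn, the matrix proteoglycan decorin, stood at 4.61 and 5.08 CPM at day 0 and 9.4 and 15.8 CPM at day 4, at 1.31 ± 0.33 (SE, adjusted p = 0.0065). It lost its call without day 0 replicate 1 (0.0939), day 0 replicate 2 (0.0566) or BFP+ replicate 2 (0.188, at 0.944), and DESeq2, which gave no adjusted p for it, called 0 of the list. Pcolce and Fstl1, extracellular protein genes outside the list that were chosen after their values were seen, were also called higher. Pcolce stood at 0.71 and 0.781 CPM and then 3.13 and 5.6 CPM, Fstl1 at 1.06 and 0.781 CPM and then 3.76 and 5.6 CPM, and both lost their call without any 1 of the 4 libraries (0.0519 to 0.214). Their part in other results was not tested. Of 16 tested stem and progenitor genes, Myb, a progenitor transcription factor, was higher, at 0.34 ± 0.07 (SE, adjusted p = 0.002), and none was lower. Myb lost its call without day 0 replicate 2 (0.088) or BFP+ replicate 1 (0.0774).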

How the data were processed

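Polyadenylated RNA was sequenced as single-end reads of 76 bases, per the labels' protocols. The authors deposited 1 table of counts per gene, with a transcript length for each gene in bases, another measure per the file headers. The submitters' processing notes name FastQC 0.11.5, Trimmomatic 0.36, STAR 2.6.1a and featureCounts 1.6.3 with mouse builds, while the labels' protocols name a human build and another counter; 96.36% of the table's genes shared with the mouse GENCODE annotation had the same coordinates, so mouse is taken. The sources used here do not state the strand setting or how multiply mapped reads were handled.

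All 14 libraries (7 groups of 2, by title) were fitted together with edgeR 4.0.16 (R 4.3.3): TMM factors, filterByExpr, quasi-likelihood tests, two-sided, Benjamini-Hochberg over the 10791 tested genes. A gene was called at an adjusted p under 0.05. SE is the log2 fold change divided by the root of F. The common biological coefficient of variation was 5.04%. With 2 against 2 libraries an exact permutation test of 1 gene cannot go below 0.333, so none is given. The test was run on simulated counts with known changes before use. Alternatives used DESeq2 1.42.0, other filters and factors, thinned counts and left-out libraries.

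Genes were named by rule: the 12 largest rises and 12 largest falls among called genes with groups that do not overlap and at least 5 CPM, up to 4 called members per gene list, the markers Egr1 and mt-Co1, the genotype genes and the 10 smallest p; others are said to be chosen after their values were seen, as were Il9r, Mettl9, Sec11c and Slc26a1, taken from the test between day 4 populations. The genes compared, the rule and the 48 lists were chosen with earlier results of these data known. Lists are described by counts and medians beside those of all tested genes. Some single genes are not reported here.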

Additional observations from a re-analysis of the deposited data

Results flagged for a closer look

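The change from day 0 differed between BFP+ and BFP- cells at day 4 in 8 genes, by edgeR's test of the difference itself. As log2 differences, BFP+ minus BFP-, these were 0.999 for Rapgef4, 0.77 for Il9r, 0.646 for Mettl9, 0.415 for Egr1, -0.999 for Hbb-bt, -0.732 for Hbb-bs, -0.497 for Slc26a1 and -0.423 for Sec11c. Between BFP+ cells at day 4 and at day 2 the change from day 0 differed in 1286 genes by the same test.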

How the results depend on the processing

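For day 4 BFP+ against day 0, 767 genes were called, 178 to 861 with 1 library left out (the highest without BFP- replicate 1), 294 by DESeq2 and 1336 with only the 4 libraries fitted. For BFP- against day 0, 866 genes became 222 to 1023, 248 by DESeq2 (37.1% of them higher, against 47.8%) and 485 with libraries thinned to 2148243 counts. Between the day 4 populations, 8 became 3 to 16, and 3 by DESeq2. At day 2 against day 0, 1928 became 860 to 1373, and 826 by DESeq2; for day 4 against day 2, 1286 became 367 to 1167, and 542 by DESeq2. With the labels' replicate number as a block the counts were 883, 934, 9, 2018 and 1366 in that order. The numbers do not pair the libraries by any label, and the deviations of replicate 1 in BFP+ and day 0 libraries correlated at -0.022 across genes. Leaving out BFP- replicate 1, leaving out the genes that moved with ribosomal RNA (809 genes), a transcript length offset (881), the leave-outs of lists and single genes in the day 2 and BFP- comparisons, and every setting for described genes outside the naming rule were chosen after seeing the data. The cause of these differences was not tested, beyond the fewer samples of a leave-out. Of 137 called genes selected for description, 89 lost the call under at least 1 alternative and 0 reversed. At these depths 3 counts correspond to 0.94 to 1.4 CPM in the 4 libraries.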
